A study of Rattus rattus with 18 samples.

Results

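Neurons hold a small set of microRNAs at higher levels than most other cells of the brain, and 7 probes for such miRNAs were followed here: rno-miR-124-3p, rno-miR-124-5p, rno-miR-128-3p, rno-miR-137-3p, rno-miR-138-5p, rno-miR-153-3p and rno-miR-218a-5p, written below without the rat prefix. They were chosen from known biology, and all 7 were among the 761 rat miRNA probes of the arrays. The brains came from 9 Sprague Dawley rats, male according to the methods, whose age was not given in the sources used here. Of these, 3 were sham-operated controls, 3 had transient middle cerebral artery occlusion (tMCAO), in which a filament closes the artery that feeds much of the forebrain and is then withdrawn, and 3 were labelled remote limb postconditioning (PostC). Whether the PostC rats also had an occlusion was not clear from the sources used here. Each rat gave 1 array of the core, labelled temporo-parietal cortex, and 1 of the peri region, labelled striatum, so there were 18 arrays in 6 groups of 3. The text of the study assigns the same tissues to core and penumbra the other way round, and the groups are therefore called core and peri. The question was whether these 7 miRNAs move together over the 6 groups.

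A miRNA is a short RNA, cut from a hairpin, that guides a silencing complex to messenger RNAs whose 3′ ends pair with its seed, the bases near its 5′ end. Neuron-enriched miRNAs keep the transcripts of other cell fates low and tune synapses, so their levels in brain tissue follow both the number of neurons and what each neuron makes. In tissue arrays fewer neurons and less of a miRNA in each neuron cannot be told apart.

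The mature sequences below are those that the probes were designed to capture, as given in the spot files, with the seed (bases 2 to 8) in capitals. They are shown because no 2 of the 7 share a seed, and because their GC content differs.
miR-124-3p: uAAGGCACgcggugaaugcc
miR-124-5p: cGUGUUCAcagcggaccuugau
miR-128-3p: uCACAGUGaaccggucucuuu
miR-137-3p: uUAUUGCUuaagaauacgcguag
miR-138-5p: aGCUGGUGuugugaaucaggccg
miR-153-3p: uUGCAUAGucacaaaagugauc
miR-218a-5p: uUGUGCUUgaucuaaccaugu

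None of the 7 shares its seed with any other probe of the array, and the nearest other probe sequence lay 7 to 9 base edits away from each. The GC content was 34.8% for miR-137-3p, 36.4% for miR-153-3p and 38.1% for miR-218a-5p. It was higher in miR-128-3p (47.6%), miR-124-5p (54.5%), miR-138-5p (56.5%) and miR-124-3p (60%).

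A probe counted as detected on an array when its spots were brighter than a limit set from the empty spots of that array. miR-124-3p, miR-128-3p, miR-137-3p, miR-138-5p and miR-153-3p were detected on all 18 arrays. miR-218a-5p was detected on 16, all but the peri arrays of tMCAO rat 1 and PostC rat 3. miR-124-5p, the arm of the miR-124 hairpin that is mostly discarded, was detected on 7, of which none was a tMCAO peri array, and its values near the limit carry little information. The number of probes detected was 318 to 509 on the sham arrays, 189 to 447 on the tMCAO arrays and 188 to 605 on the PostC arrays. All levels below, apart from raw intensities and the summed intensities of marker lists, are normalized log2 intensities. In these a difference of 1 is a doubling, and they are compared only within a probe.

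**Figure D1:**
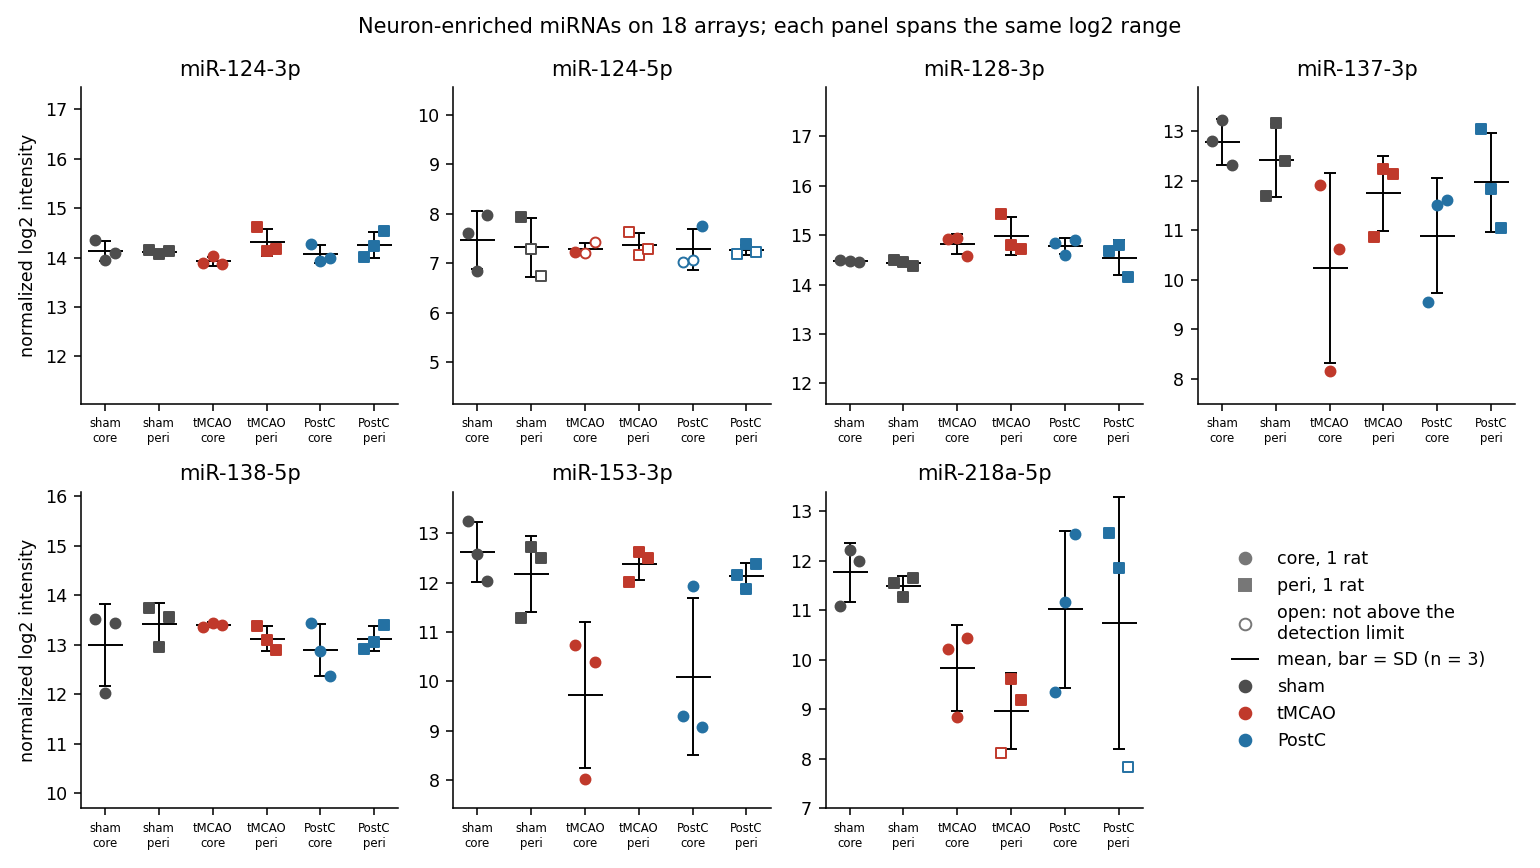
Normalized log2 intensity (vertical axis) of each member on the 18 arrays, by treatment and region, with 1 point a rat, horizontal marks for group means and bars for the SD; open points were not above the detection limit. miR-124-3p stayed between 13.86 and 14.63 on all arrays, whereas miR-153-3p dropped to between 8.03 and 10.73 in tMCAO core but not in tMCAO peri, and miR-218a-5p was low in both tMCAO regions.

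After tMCAO, 3 of the 7 miRNAs were lower than in sham when the core and peri values of each rat were averaged: miR-218a-5p, miR-137-3p and miR-153-3p. The other 4 did not pass the test, and miR-124-3p, the miRNA most used as a neuronal marker, differed by -0.01. The test was limma across the 532 miRNAs detected on at least 3 arrays, with Benjamini-Hochberg adjustment and a threshold of 0.05. Over all 532 it called 63, or 11.8%, and lower levels made up 7.33%. The median log2 difference was -0.07 over the 7 members and -0.02 over all miRNAs tested.

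miR-218a-5p, which is made from introns of the Slit genes and is known for its place in motor neurons and forebrain circuits, showed the largest difference of the 7. In sham it had 11.09, 12.22 and 11.99 in the core of rats 1 to 3 and 11.55, 11.27 and 11.65 in their peri region. In tMCAO it had 10.23, 8.84 and 10.45 in core and 8.11, 9.60 and 9.18 in peri. Every tMCAO array lay below every sham array. The rat means were 9.40 ± 0.36 in tMCAO and 11.63 ± 0.27 in sham (SD, n = 3 rats), so miR-218a-5p fell by 2.23 on the log2 scale (standard error 0.35, adjusted p = 0.00555 in limma), to a level 4.68-fold lower. The tMCAO peri value of rat 1 was under the detection limit, where the offset of the background correction holds values up, so this fold may understate the difference.

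miR-137-3p, which acts on synaptic vesicle release and plasticity, had 12.81, 13.23 and 12.31 in sham core and 11.69, 13.16 and 12.39 in sham peri. In tMCAO it had 11.92, 8.15 and 10.63 in core and 10.86, 12.23 and 12.14 in peri. The core values were thus all below those of sham core, most of all that of rat 2, whereas the peri values overlapped with sham. Averaged per rat, it fell by 1.61 (standard error 0.36, adjusted p = 0.0184 in limma), from 12.60 ± 0.52 to 10.99 ± 0.69 (SD, n = 3 rats).

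miR-153-3p had 13.24, 12.58 and 12.03 in sham core and 11.29, 12.72 and 12.50 in sham peri. In tMCAO core it had 10.73, 8.03 and 10.40, and in tMCAO peri 12.01, 12.61 and 12.50. Only the core values left the sham range. Averaged per rat, it fell by 1.35 (standard error 0.38, adjusted p = 0.0452 in limma), from 12.39 ± 0.22 to 11.05 ± 0.63 (SD, n = 3 rats).

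The calls differed in how firmly they stood. miR-218a-5p remained past the threshold in all 21 other settings it could be tested in, miR-137-3p in 17 of 22 and miR-153-3p in 11 of 22. Without tMCAO rat 2, or without sham rat 2, only miR-218a-5p was called, and over all 532 miRNAs the count went from 63 to 8 and 37. Without tMCAO rat 3 the count was 4, since miR-128-3p then passed as well, with 96 over all miRNAs.

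miR-128-3p, which damps neuronal excitability, lay between 14.37 and 14.50 on the 6 sham arrays. In tMCAO it had 14.93, 14.95 and 14.59 in core and 15.43, 14.80 and 14.72 in peri. All tMCAO values were above all sham values, but the difference in rat means of 0.44 (standard error 0.14, 95% interval 0.13 to 0.75) missed the threshold with an adjusted p of 0.0668 in limma. With background subtracted outright it was -0.05, so its direction depended on the background correction. Its raw intensity reached 49451 units, where the brightest spot of an array had 48599 to 61310, and whether the scanner was near its ceiling was not tested.

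miR-124-3p, which silences non-neuronal genes in neurons, had 13.86 to 14.03 in tMCAO core and 14.12 to 14.63 in tMCAO peri, against 13.95 to 14.35 in sham core and 14.08 to 14.15 in sham peri. The 95% interval of its difference in rat means, -0.29 to 0.27, held no fall as large as that of any of the 3 called, and with plain background subtraction the difference was -0.41 (adjusted p = 0.447 in limma). miR-138-5p, which limits the size of dendritic spines, had 13.36 to 13.45 in tMCAO core and 12.90 to 13.39 in tMCAO peri. In sham core it had 13.51, 12.03 and 13.43, and the low value of rat 2 widened the interval of its difference of 0.06 to between -0.53 and 0.65. miR-124-5p differed by -0.07 (interval -0.51 to 0.37), and by -0.62 in the deposited table.

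At an unadjusted p under 0.05 there were 4 of the 7, against 31.4% of all. Groups that did not overlap in rat means were found for 4 of the 7, 3 lower and 1 higher. Over all miRNAs tested this held for 41.0%.

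**Figure D2:**
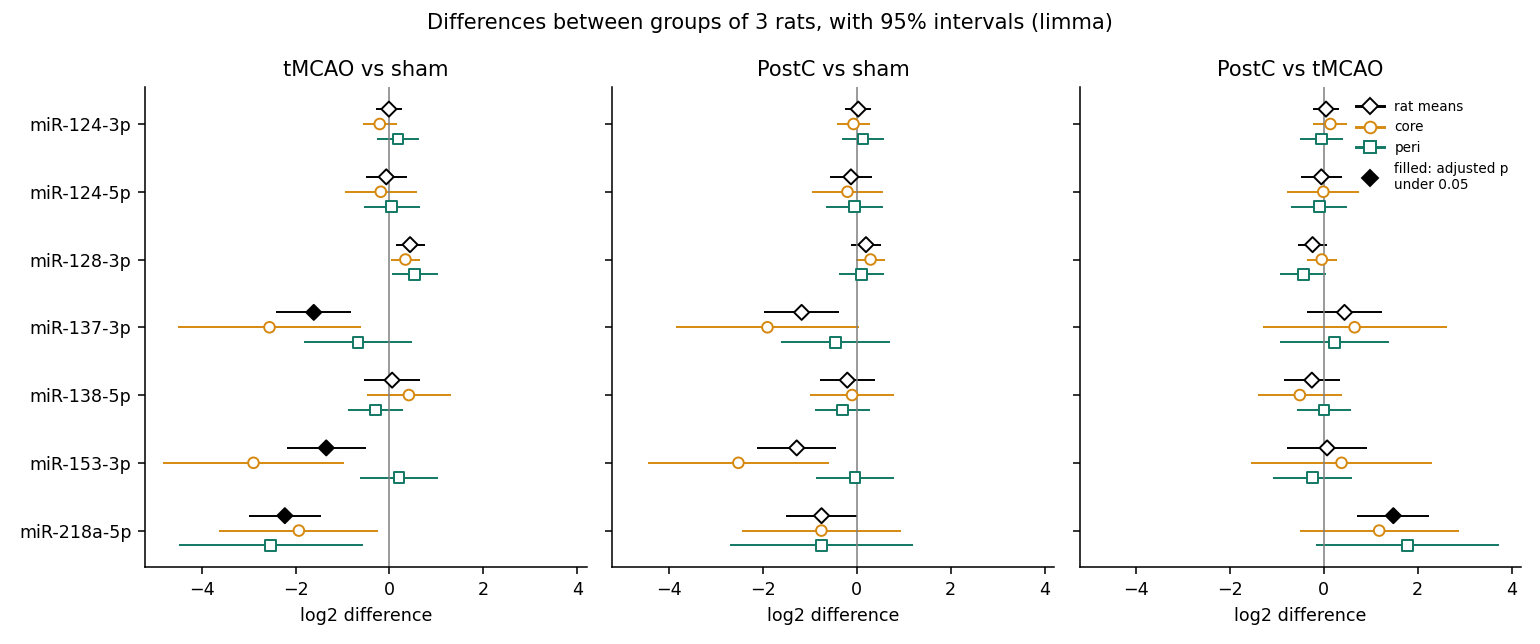
Log2 difference (horizontal axis) with its 95% interval for each member in 3 comparisons, for rat means (diamonds), core (circles) and peri (squares), with filled symbols where the adjusted p in limma was under 0.05. Filled symbols occur only for rat means: miR-137-3p, miR-153-3p and miR-218a-5p in tMCAO against sham, and miR-218a-5p in PostC against tMCAO.

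Within 1 region, none of the 7 passed the adjusted threshold between tMCAO and sham. In core the differences were -2.89 for miR-153-3p (standard error 0.86, adjusted p = 0.11 in limma), -2.55 for miR-137-3p (standard error 0.88, adjusted p = 0.144) and -1.93 for miR-218a-5p (standard error 0.76, adjusted p = 0.17). These 3 were at lower levels in all tMCAO core arrays than in any sham core array. With miR-128-3p, whose tMCAO core arrays were all higher, 4 of the 7 had separate group ranges, against 41.0% of all, while miR-128-3p differed by 0.34 and miR-138-5p by 0.41. With 1 rat left out miR-138-5p ran from -0.07 to 0.67, so its sign was not stable. Over all miRNAs 12 of 532 were called in core, 2.26%. At an unadjusted p under 0.05 there were 4 members in core, against 21.2% of all. The methods' t-test called 0 members after adjustment, and its share over all miRNAs in core is not given. Counts of 0 from this test, here and below, are therefore not read as a result about the members. The core differences rested in part on tMCAO rat 2. Without it they were -2.05 for miR-153-3p, -1.51 for miR-137-3p and -1.43 for miR-218a-5p, and without tMCAO rat 1 they were -3.40, -3.40 and -2.12.

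In peri the differences were -2.53 for miR-218a-5p (standard error 0.90, adjusted p = 0.199 in limma), -0.67 for miR-137-3p, 0.20 for miR-153-3p and 0.54 for miR-128-3p. Over all miRNAs 1 of 532 was called, 0.188%. An unadjusted p under 0.05 was reached by 2 members, miR-218a-5p and miR-128-3p, and by 16.4% of all, and the methods' t-test called 0. The same 2 had separate group ranges, against 31.6% of all. With 1 rat left out miR-137-3p ran from -1.03 to -0.23 and miR-153-3p from -0.24 to 0.48. Median scaling gave -1.67 and -0.81. The 3 PostC rats share the estimate of spread in the peri fit. Without PostC rat 3, whose peri value of miR-218a-5p was far below those of the other PostC rats, the difference of -2.53 for miR-218a-5p had an adjusted p of 0.00465 in limma. This was its only call among the 9 settings with 1 rat left out. The share over all miRNAs in that setting is not given.

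The contrast between regions was tested within rats, as the tMCAO difference in core minus that in peri. It was -3.10 for miR-153-3p (standard error 1.09, adjusted p = 0.352 in limma), -1.88 for miR-137-3p (standard error 1.28) and 0.60 for miR-218a-5p (standard error 1.64). Without tMCAO rat 2 these were -2.14, -0.60 and 1.42, and without tMCAO rat 1 -3.79, -3.17 and -0.024, so the sign for miR-218a-5p was not stable. Of the 7, and of the 532 (0%), 0 passed in limma and 0 members in the methods' t-test, while 1 member, miR-153-3p, had an unadjusted p under 0.05, as did 8.83% of all. In each tMCAO rat miR-153-3p was lower in core than in peri, by 1.28, 4.58 and 2.10. In sham rats, where 0% of all miRNAs were called between regions, the core minus peri differences were 1.95, -0.14 and -0.47, so no common direction was seen there. The difference of -2.65 within tMCAO rats had an adjusted p of 0.150 in limma, in a comparison in which 1.32% of all miRNAs were called, and of 0.0314 when the tMCAO rats were fitted alone. In PostC rats it was -2.86, 0.06 and -3.31, with 0.752% of all called. The methods' t-test called 0 members in any of the 3 groups.

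In PostC rats none of the 7 differed from sham at the adjusted threshold in limma, where 1 of 532 miRNAs, 0.188%, was called. An unadjusted p under 0.05 was reached by 2 of the 7, miR-153-3p and miR-137-3p, against 14.1% of all, and the methods' t-test called 0. miR-153-3p had 9.30, 11.92 and 9.07 in PostC core and 12.16, 11.86 and 12.38 in PostC peri. As in tMCAO rats, the low values were those of core arrays. Its rat means differed from sham by -1.28 (standard error 0.38, adjusted p = 0.256 in limma). In core alone it was -2.52 (adjusted p = 0.203), and neither in core (0%) nor in peri (0%) was any of the 532 called.

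miR-137-3p had 9.54, 11.51 and 11.60 in PostC core and 13.04, 11.82 and 11.05 in PostC peri, with a difference from sham of -1.17 in rat means (standard error 0.36, adjusted p = 0.260 in limma). Its PostC core arrays were all below its sham core arrays, which held for 59 of all 532 miRNAs. miR-218a-5p had 9.36, 11.16 and 12.54 in PostC core and 12.56, 11.85 and 7.83 in PostC peri. Rat 1 was low in core and high in peri and rat 3 the reverse, so the group SD of 2.55 in PostC peri was the widest of any member and group. Its difference from sham in rat means was -0.75 (adjusted p = 0.352 in limma), and -1.06 to -0.40 with 1 rat left out. The other 4 differed from sham by between -0.20 and 0.20, with miR-128-3p at 0.20. In 3 of the 7 the PostC and sham rat means did not overlap, against 18.2% of all miRNAs tested.

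Against tMCAO rats, PostC rats had more miR-218a-5p, the only member called. The rat means were 10.96, 11.50 and 10.18 in PostC and 9.17, 9.22 and 9.82 in tMCAO, and the groups did not overlap, which held for 26.1% of all. The difference was 1.48 (standard error 0.35, adjusted p = 0.0318 in limma), and 5.64% of all miRNAs were called in this comparison, 5.08% as higher in PostC. The peri arrays of tMCAO rat 1 and PostC rat 3 were under the detection limit, so the size of this difference is uncertain. In core the difference was 1.18 (adjusted p = 0.583 in limma, 2.44% of all called), and 0.42 to 2.01 with 1 rat left out. In peri it was 1.78 (adjusted p = 0.756 in limma, 0% called), where the spread between PostC rats was largest. Over the 9 settings with 1 rat left out the peri difference ran from 0.87 to 3.24. It was called only at 3.24, without PostC rat 3 (adjusted p = 0.00198 in limma). The share over all miRNAs in that setting is not given. The call in rat means was lost without PostC rat 1 or 2 or without tMCAO rat 1 or 2. It held in 11 of 21 other settings in all, and was also lost with plain background subtraction, in the deposited table, with the replicate block, with only the groups compared, in the methods' t-test and with the rat as a random block. miR-137-3p differed by 0.44 (interval -0.36 to 1.24) and miR-153-3p by 0.07 (interval -0.77 to 0.91). The comparisons of tMCAO and of PostC with sham use the same sham rats, and the comparison of PostC with tMCAO uses the rats of both.

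**Figure D3:**
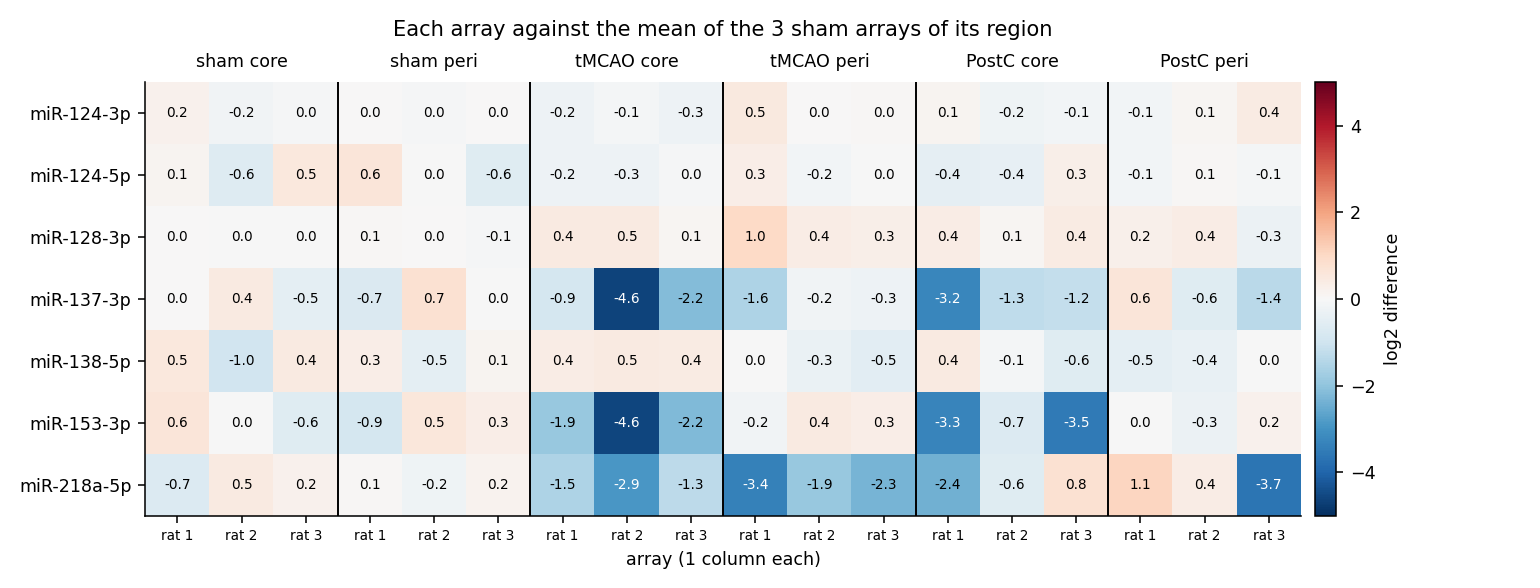
Log2 difference (colour and printed value) of each member on each array from the mean of the 3 sham arrays of the same region, 1 column an array. Low values stand in 3 rows only: miR-137-3p and miR-153-3p mainly in core arrays of tMCAO and PostC, down to -4.6 in the core of tMCAO rat 2, and miR-218a-5p on all 6 tMCAO arrays and in PostC core rat 1 and PostC peri rat 3.

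The 7 miRNAs did not move as 1 group. On each of the 12 tMCAO and PostC arrays, between 3 and 6 of the 7 lay below the mean of the sham arrays of that region, and on none were all 7 below it. Over all miRNAs tested the share below the sham mean ran from 42.7% to 55.3% of an array. On 11 of the 12 arrays the member farthest below sham was miR-137-3p, miR-153-3p or miR-218a-5p, and the exception was PostC peri rat 1, where it was miR-138-5p at -0.50.

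Over the 18 arrays the median Pearson r of the 21 pairs of members was -0.005, with 10 pairs above 0. The median over all pairs of the 532 miRNAs tested was -0.011, which is about the same. Without miR-124-5p, which was mostly under the detection limit, the median of the members was -0.081 over 15 pairs, with 6 above 0. The 18 points share the normalization, and core and peri of a rat share the animal, so these values are a description. The highest r was 0.804, between miR-137-3p and miR-153-3p. It was 0.859 over the 9 core arrays, 0.419 over the 9 peri arrays and 0.659 once the group means were removed. In the 9 rat means r was 0.925 (Spearman's rho 0.967), and 0.896 without the 2 rats farthest from the median of miR-137-3p.

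miR-218a-5p followed miR-137-3p with r = 0.60 and miR-153-3p with 0.144. With the group means removed these were 0.665 and 0.0845. In the 9 rat means, which average core and peri, r was higher, 0.789 with miR-137-3p (Spearman's rho 0.733) and 0.735 with miR-153-3p (rho 0.783). Without the 2 rats farthest from the median of the other member these were 0.709 and 0.549, and with the group means removed from the rat means 0.39 and 0.654. These 3 members were all lower in tMCAO rats, which by itself gives positive r over rat means. Over the 9 peri arrays miR-153-3p with miR-218a-5p had r = -0.242. The lowest r was -0.564, between miR-124-3p and miR-218a-5p, and it was -0.813 with the group means removed. miR-124-3p and miR-138-5p had r = 0.365, and 0.648 with the group means removed. Some pairs depended on the scaling: this pair had 0.656 in the deposited table and 0.806 with median scaling, and miR-124-3p with miR-128-3p went from 0.127 to 0.763 with median scaling. The pair of miR-137-3p with miR-153-3p had 0.817 and 0.813 under these scalings, and the median over the 21 pairs was 0.038 and -0.071, against -0.016 and 0.051 over all miRNAs tested. With median scaling r rose in general among the 141 miRNAs detected on all arrays, to a median of 0.313. In group means, miR-218a-5p ran from sham core (11.77) and sham peri (11.49) through PostC core (11.02) and PostC peri (10.75) to tMCAO core (9.84) and tMCAO peri (8.97). miR-137-3p ran from sham core (12.79), sham peri (12.41), PostC peri (11.97) and tMCAO peri (11.75) to PostC core (10.89) and tMCAO core (10.23). For miR-153-3p the 4 upper groups, from sham core (12.61) to PostC peri (12.13), were followed by PostC core (10.10) and tMCAO core (9.72). The ranges of the arrays of any neighbours in these 3 orders overlapped.

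**Figure D4:**
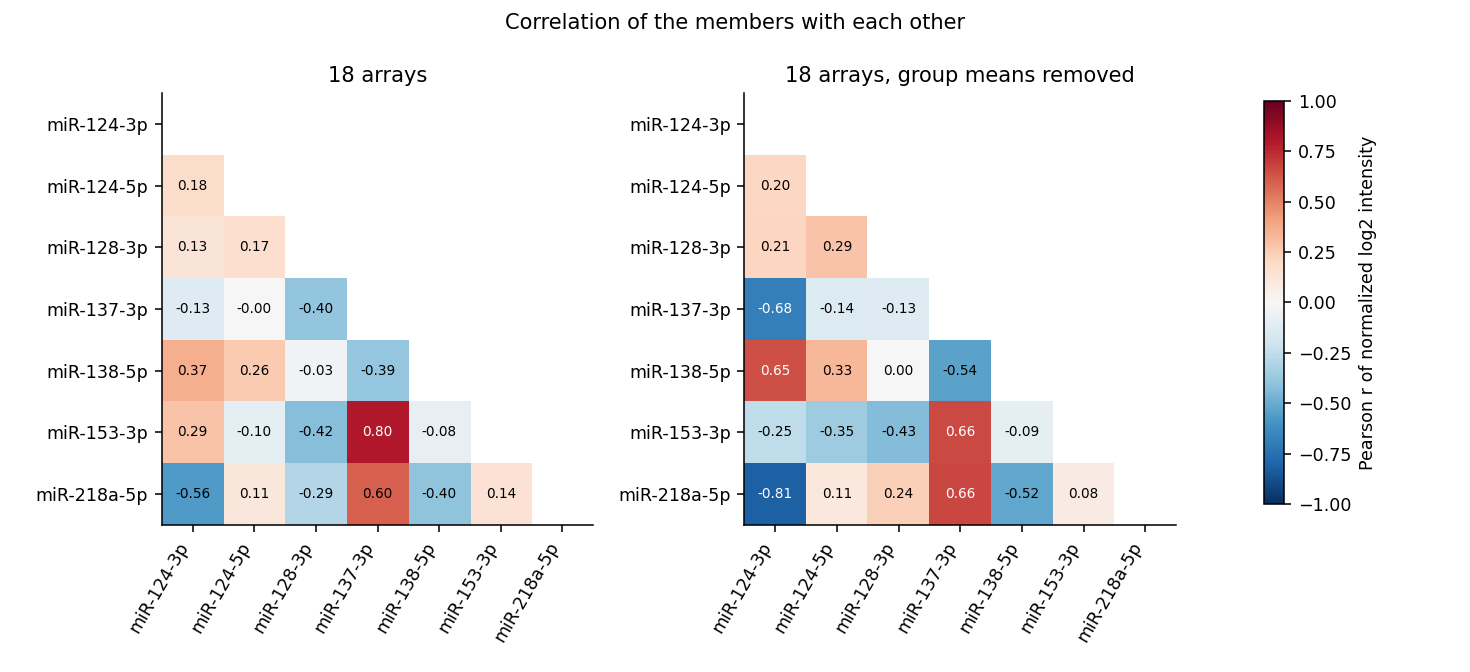
Pearson r between the normalized log2 intensities of each pair of members over the 18 arrays (left) and over the same arrays after the mean of each of the 6 groups was removed (right). Only the pairs of miR-137-3p with miR-153-3p and with miR-218a-5p are above 0.5 in both panels, and the pair of miR-124-3p with miR-218a-5p is below -0.5 in both.

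Of the 136 other miRNAs detected on all 18 arrays, the 5 with the profile most like the mean of the members other than miR-124-5p were miR-384-5p (r = 0.843), miR-9a-5p (0.833), miR-186-5p (0.777), miR-27b-3p (0.776) and miR-29c-3p (0.756). For the same 5, r with the group means removed was 0.545 to 0.868.

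The other arms and near relatives of these hairpins showed no difference that passed the test. Of 9 such probes on the array 8 were tested and 0 were called between tMCAO and sham rat means in limma, against the 11.8% of all, with 1 at an unadjusted p under 0.05 and 0 by the methods' t-test. The largest difference of the 8 was that of miR-138-2-3p, with 0.74 (standard error 0.33, adjusted p = 0.151). The partner arms of the 3 called members were dim: miR-153-5p was detected on 15 arrays, miR-137-5p on 6, miR-218a-2-3p on 7 and miR-218a-1-3p on 4. miR-153-5p differed by -0.24 (standard error 0.21). The others were above the limit on 0 to 2 of 6 tMCAO arrays, and no size is given for them. miR-218b, whose sequence lies within the reverse complement of miR-218a-5p, was detected on 1 array and not tested.

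Among 14 other neuron-linked miRNAs, 2 fell and 1 rose after tMCAO in rat means, 3 calls in limma where 11.8% of all miRNAs were called, and the methods' t-test called 0 of them. miR-132-5p, made in response to neuronal activity, fell by 2.24 (adjusted p = 0.00555 in limma; above the detection limit on 4 of 6 tMCAO arrays) and miR-9a-5p, a regulator of neural progenitors, by 1.20 (adjusted p = 0.0350). miR-433-3p rose by 1.26 (adjusted p = 0.0352). The median of the 14 was -0.11. Mixed directions were thus also found outside the 7.

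Markers of other cells were compared between the groups as well. Of 6 leukocyte and microglia miRNAs 5 were tested and miR-150-5p rose after tMCAO in rat means by 0.92 (adjusted p = 0.0298 in limma), where 4.51% of all were called higher. miR-155-5p also passed (adjusted p = 0.0126), but it was above the detection limit on 2 tMCAO arrays, 1 PostC array and no sham array. It thus entered the test only through the groups where it was high, so no fold is given and it is not counted. The methods' t-test called 1 of the 5. The summed normalized intensity of the 6 was 7592 to 12363 units in tMCAO core and 3297 to 4031 in sham core, and 3468 to 4713 in tMCAO peri against 3073 to 3594 in sham peri. Such sums, here and below, add different probes, so the brightest weigh most. This one includes miR-155-5p and miR-142-3p. miR-142-3p, a miRNA of blood-forming cells, was detected on 1 array of the 18, a sham array. miR-142-5p, from the same hairpin, was above the limit on 3 sham arrays and on no tMCAO array. PostC core, with 5968 to 8372, was also above sham core.

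Of 3 red blood cell miRNAs 2 were tested, and 1, miR-486, was called higher (1.39, adjusted p = 0.00951 in limma). It was above the detection limit on only 3 of 6 tMCAO and 3 of 6 sham arrays, so the size of this difference is uncertain. The other one tested, miR-451-5p, was detected on all 18 arrays and differed by 0.14, without a call. miR-144-3p was detected on none of the arrays. The summed intensity of the 3, miR-144-3p included, was 2967 to 4179 units in tMCAO core and 2421 to 4272 in sham core. Of 5 oligodendrocyte miRNAs 4 were tested and 0 were called, with 2 at an unadjusted p under 0.05, and their sum was 4089 to 6543 in tMCAO core and 4992 to 17605 in sham core. Of 4 vascular miRNAs 0 were called, with 1 at an unadjusted p under 0.05. Of 6 ependymal and choroid plexus miRNAs 5 were tested, and miR-34b-5p had an adjusted p of 0.0289 as lower. It was above the limit on 3 sham, 2 PostC and no tMCAO arrays, so it entered the test only through the groups where it was high and is not counted. At an unadjusted p under 0.05 there were 5 of the 5, 4 lower and 1 higher, against 31.4% of all, but 3 of these, miR-34b-5p among them, entered the test in that way. The methods' t-test called 0 in the red blood cell, oligodendrocyte, vascular and ependymal lists. The part of these cells in the levels of the 3 falling members was not tested.

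GC content moved with the differences. The 3 members that fell have the lowest GC content of the 7, and over the 532 miRNAs the log2 difference between tMCAO and sham rat means had a Pearson r of 0.342 with GC content, across miRNAs, which are not independent replicates. Of the 99 miRNAs with under 40% GC, 84.8% were below 0 and 15.2% were called lower, against 45.0% and 5.54% of the other 433. By region r was 0.399 in core and 0.135 in peri, where 60.6% of the low-GC miRNAs were below 0 against 49.4% of the others and miR-218a-5p differed by -2.53. With each array corrected for its trend with GC content, miR-218a-5p fell by 1.98 (adjusted p = 0.00778 in limma) and miR-137-3p by 1.30 (adjusted p = 0.0211). miR-153-3p then had -1.07 with an adjusted p of 0.0597, and miR-128-3p passed the threshold with 0.53 (adjusted p = 0.0341).

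**Figure D5:**
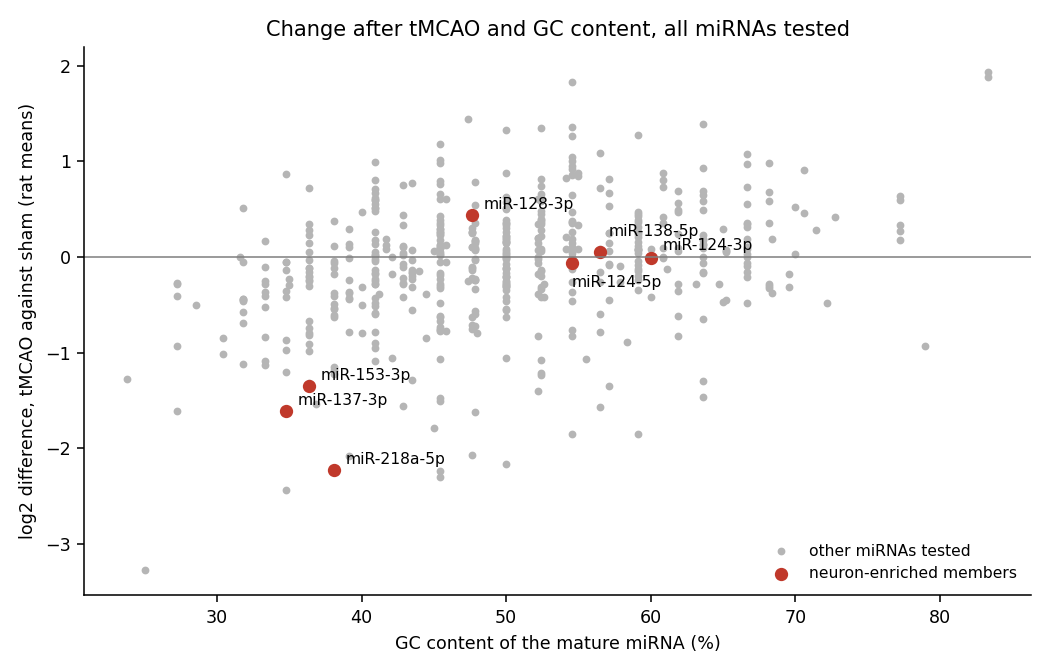
Log2 difference between tMCAO and sham rat means (vertical axis) against the GC content of the mature miRNA in percent (horizontal axis) for the 532 miRNAs tested, with the 7 members in red. miR-137-3p, miR-153-3p and miR-218a-5p lie below 39% GC and below -1, while the other 4, all above 47% GC, lie between -0.07 and 0.44.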

How the data were processed

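Total RNA of 18 brain samples was labelled with Cy5 and hybridized to single-colour arrays. Both raw and processed kinds of intensity were deposited by the authors: raw spot medians from the service company's scans, with background still in them, and a table after background subtraction and locally weighted regression. The raw intensities were used here. All 3968 spots were background-corrected with normexp (offset 50), cyclic loess was applied to their log2 across the 18 arrays, and each probe's 4 spots were averaged. The detection limit of an array was set from its 612 empty spots (median plus 3 scaled MAD). The 532 of 761 probes above it on 3 or more arrays were tested with limma 3.58.1 in R 4.3.3 (lmFit, eBayes with a trend, Benjamini-Hochberg over all 532 at 0.05). The rat was the replicate, 3 a group, and 15 comparisons were made, with core and peri paired by rat.

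The fit was also run on simulated data, but the outcome is not given here and is not used as support. Precision is limited by having 3 rats a group and by dim spots: the median miRNA spot of an array had 49.1 to 261 units. Alternatives to the background correction, normalization, filter, test and samples were run, of which 2 were added after seeing the data. The members, the other lists and the tests were chosen with earlier results of these data known. All 7 members are described by the same measures, and the 5 most alike were taken by Pearson r. Genes of other lists are named mainly where they passed the test or moved most. Genome positions are not given, as no rat genome of the probes' species was used here.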

Additional observations from a re-analysis of the deposited data

How the results depend on the processing

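Between tMCAO and sham rat means, 3 of the 7 members were called as reported, 1 with the deposited table (miR-218a-5p; 46 of all 532) and 1 with the methods' t-test, and 1 to 4 when a rat was left out (8 to 96 of all). miR-218a-5p kept its call in all 21 alternatives that hold it (adjusted p 0.00238 to 0.0473), and miR-137-3p and miR-153-3p kept their sign in 22 of 22. Over all miRNAs the count was 63, and 130 with median scaling, 124 with quantile normalization, 43 with plain subtraction and 23 with the t-test. In core the count of members was 0, and 1 among miRNAs detected on all arrays (miR-153-3p; 14 of all 141). In peri it was 0, and 3 with median scaling (miR-137-3p -1.67, miR-138-5p -1.09, miR-218a-5p -3.65; 128 of all 532), which moved the median of all miRNAs to -0.42 and miR-153-3p from 0.20 to -0.81. It was 1 when only the groups compared were fitted (28 of all), and 0 to 1 when a rat was left out, for which the counts over all miRNAs are not given. Between PostC and tMCAO rat means it was 1, and 0 with plain subtraction, the deposited table, the replicate block, only the groups compared, the t-test or the rat as a random block (6 to 32 of all, against 30). It was also 0 with detection on all arrays, where miR-218a-5p was not tested. When a rat was left out it was 0 to 1, and also 0 to 1 in peri. The counts over all miRNAs are not given for these, so they are not set against a background. Within tMCAO rats, core against peri had 0, and 1 when fitted alone (17 of all). The random block and the unpaired core against peri fit were added after seeing the data.

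Rat numbers did not pair the rats across groups: 2 of 9 same-numbered correlations of rat means were over 0.1. With the replicate block 2 members were called between tMCAO and sham rat means, and 43 of all miRNAs.

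Signs turned for members that were not called, most of them with differences near 0. Between tMCAO and sham rat means with plain subtraction, miR-124-5p had 0.094, miR-128-3p -0.045 and miR-138-5p -0.18. miR-138-5p had -0.24 with median scaling, -0.020 in the deposited table and -0.00215 with GC correction. Leaving out a rat gave -0.081 to 0.051 for miR-124-3p, -0.23 to 0.12 for miR-124-5p and -0.30 to 0.27 for miR-138-5p. Between PostC and sham, miR-124-3p had -0.32 with plain subtraction, -0.13 with median scaling and -0.040 with GC correction, and miR-128-3p -0.21 with plain subtraction. Leaving out a rat gave -0.020 to 0.097 for miR-124-3p, -0.29 to 0.065 for miR-124-5p and -0.56 to 0.014 for miR-138-5p. The cause of these shifts was not tested.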
